A study of Mus musculus with 12 samples.

Results

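The genes described here are 10 rapidly induced transcription factors and signalling regulators, Jun, Junb, Jund, Fos, Fosl2, Atf3, Egr1, Ier2, Ier3 and Myc, measured in mouse liver during CCl4-induced fibrosis with and without PZH. They were chosen by name, with earlier results of these data known. Every listed protein-coding transcript of each gene was taken by its Ensembl identifier, and gene values are sums over those transcripts. The 10 genes had 16 of the 29883 listed protein-coding transcripts and were 10 of 14188 genes.

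AP-1 is a dimer of Jun family proteins with Fos or ATF family proteins that binds DNA and activates or represses transcription. Immediate early genes, to which most AP-1 genes belong, are transcribed within minutes of a growth factor, cytokine or stress signal, because the factors that switch them on are already present and are activated by MAP kinases, and their mRNAs are usually short-lived. In the liver these genes are known for their induction by toxins, partial hepatectomy and inflammation.

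The control group held 6 mice that received CCl4, a solvent that injures hepatocytes, in corn oil into the peritoneum 2 times per week and double distilled water into the stomach 1 time per day. The 6 mice of the PZH group received the same CCl4 and, in place of the water, PZH (Pien Tze Huang), a traditional Chinese medicine, by the same route. All were male mice, 6 weeks old at the start and killed in week 8, and their strain is C57BL/8 in the sample labels and C57BL/6J in the methods of the study. No mouse without CCl4 is among these samples, so levels can be compared between the groups only, and not with an uninjured liver. Each mouse gave 1 sample of whole liver, and fewer cells of a type and less RNA per cell cannot be told apart in it. The unit is FPKM, fragments scaled to the length of the transcript and the size of the library, which the authors deposited without counts, so the depth of each library is unknown.

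The promoters of 4 of the 10 genes, in which the letters of well-known regulatory sites can be seen close to the start of transcription, were taken from RefSeq (GRCm38.p6) as the 120 bases before and the first 10 bases from the RefSeq start. Capitals mark the AP-1/ATF-type sites TGACATCA and TTACGTCA, the CRE core TGACG and the TATA box TATAAA.
Jun, chr4:95052213-95052342, minus strand: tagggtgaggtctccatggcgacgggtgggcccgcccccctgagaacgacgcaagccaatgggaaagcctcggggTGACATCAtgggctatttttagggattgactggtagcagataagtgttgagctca
Fos, chr12:85473770-85473899, plus strand: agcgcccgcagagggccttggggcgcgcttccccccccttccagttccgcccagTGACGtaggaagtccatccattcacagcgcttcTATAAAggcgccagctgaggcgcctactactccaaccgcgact
Junb, chr8:84978739-84978868, minus strand: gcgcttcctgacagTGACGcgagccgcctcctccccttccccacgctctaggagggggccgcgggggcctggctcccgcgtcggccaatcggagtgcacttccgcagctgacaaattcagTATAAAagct
Atf3, chr1:191183324-191183453, minus strand: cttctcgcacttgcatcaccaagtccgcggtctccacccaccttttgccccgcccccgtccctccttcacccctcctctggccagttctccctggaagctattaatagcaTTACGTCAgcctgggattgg

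RefSeq windows of 300 bases (250 before and 50 from the start) were at hand for 7 of the 10 genes, Jun, Junb, Jund, Fos, Fosl2, Atf3 and Ier3. Both strands were searched. The variant AP-1/ATF site TGACATCA was in the Jun window, 45 bases before the start, and in 3.62% of 32817 mouse promoter windows of the same length. TTACGTCA was in the Atf3 window, 10 bases before the start, and in 0.497% of all windows. These 2 motifs were added after the Jun and Atf3 windows had been read. The CRE core TGACG was in the windows of Fos (129 and 66 bases before the start), Junb (106 bases) and Atf3 (where it lies within TTACGTCA on the other strand), and in 20.8% of all windows. TATAAA was in those of Fos (33 bases before the start) and Junb (at the RefSeq start) and in 13.6% of all windows.

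The 7 windows had a median of 60% G and C and 20 CpG, beside 52.7% and 7 over all windows. None of the 7 held the letters of the AP-1 consensus TGACTCA (5.2% of all windows), the full CRE TGACGTCA (1.79%), the CArG box bound by SRF (1.63%), the STAT site TTCNNNGAA (8.29%), the Egr site GCGTGGGCG (0.612%) or the E-box CACGTG (7.15%). The RefSeq start was 0 bases from the start of the main listed transcript for Jun and Fos. It lay 30 bases upstream of that start for Junb, 7 bases downstream for Atf3 and 29 bases downstream for Ier3, but 1210 bases upstream for Jund and 671 bases downstream for Fosl2. A match in these windows is a description of the sequence, not a site shown to be bound in these livers.

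Short-lived mRNAs of this class often carry AUUUA pentamers, the core of the AU-rich element, in the 3′ UTR. At least 1 ATTTA was present in the annotated 3′ UTR (GENCODE M21, main listed transcript) of 8 of the 10 genes, and in 68.4% of 13311 genes with an annotated 3′ UTR of at least 100 bases. Ier3 had 5 in 613 bases, or 8.16 per kilobase, a density above that of 98.6% of those genes. Fos had 4 in 815 bases, or 4.91 per kilobase, above 93.1%. Ier2 had none in 755 bases, nor had the main listed Myc transcript, Myc-206, in the 159 bases annotated for it. Myc-206 ends at position 61990067, while Myc-202 runs to 61990374 on the same strand. The bases past the end of Myc-206 were not counted, so the absence holds for that transcript only. The densest stretches of 30 bases in Fos and Ier3, the pair with the largest ratios of group means below, are printed with ATTTA in capitals.
Fos 3′ UTR, chr12:85477090-85477119, plus strand: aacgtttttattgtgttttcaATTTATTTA
Ier3 3′ UTR, chr17:35822476-35822505, plus strand: ctccgtgtctaattaatATTTAtgtATTTA

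The comparison of the groups asks how the expression of these genes differed between mice given CCl4 with PZH and mice given CCl4 with water. Below, a gene that fell or rose is one lower or higher in the PZH group. The time from the last CCl4 injection to killing is not given in the sources used here, and its part in the levels was not tested. A gene was called when its level differed at least 2-fold (1 on the log2 scale) with P below 0.05 in limma on log2(FPKM + 1), and P adjusted over all 14188 genes is given beside it. All but Myc were called lower in the PZH group, 9 of 10, whereas 2.5% of all genes were called lower and 1.52% higher. The same 9 had an adjusted P below 0.05, as did 32.1% of all genes in the lower direction and 12.7% in the higher. In these 9 the highest PZH mouse was below the lowest control mouse, which was so for 17.9% of all genes. Of single genes, the largest differences on the log2(FPKM + 1) scale were those of Ier3, Egr1 and Atf3, and the smallest were those of Jund and Myc. By the ratio of group means, the largest were those of Ier3 (8.77) and Fos (8.51).

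The direction of every difference rests on the group names in the columns of the deposited tables, and no targeted gene checks those names. As the columns stand, 594 protein-coding transcripts were called lower and 372 higher in the mice named PZH, and of the lncRNA transcripts 6 were lower and 17 higher. The text of the study counts the more frequent direction the other way round for both kinds of transcript. Whether the groups are in reverse in the column names or in that text could not be settled from the deposited values alone. The study's own list of called transcripts, with values per mouse, was not compared. Values are given below for the groups as the tables name them.

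**Figure D1:**
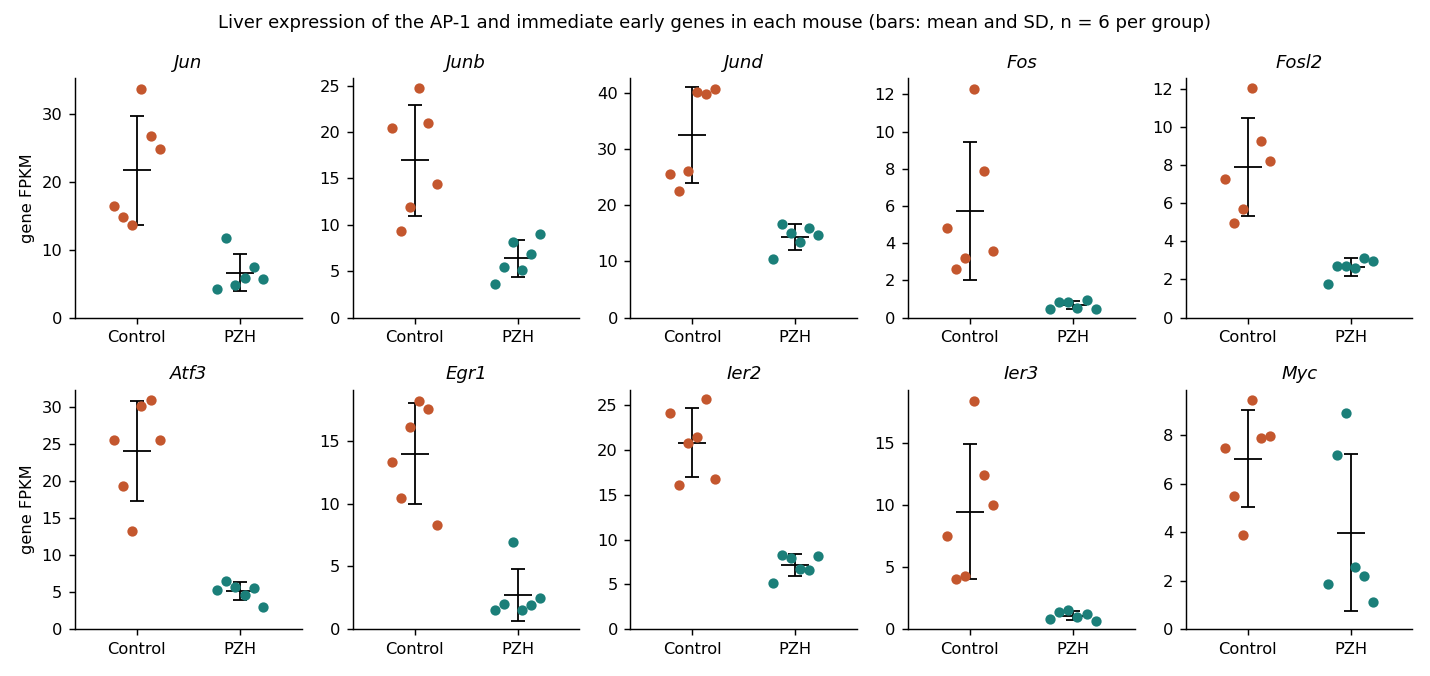
Gene FPKM (y axis, linear, from 0) of each of the 10 genes in the control and PZH mice, with each point 1 mouse, ordered by mouse number, and bars for the mean and SD (n = 6 per group). The groups did not overlap in any gene but Myc, in which PZH 2 (7.19 FPKM) and PZH 3 (8.91 FPKM) lay within the control range.

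Jun, on chromosome 4 (95049034-95052222, minus strand, GRCm38, a gene of 1 exon), encodes the protein that most strongly activates transcription among the partners in AP-1 dimers. It ranged from 4.27 to 11.7 FPKM in the PZH mice (median 5.71) and from 13.6 to 33.8 FPKM in the control mice (median 20.7). The highest PZH mouse, PZH 2, stood apart from the other PZH mice, the next of which was at 7.49 FPKM, and was still below every control mouse. The mean fell from 21.7 ± 8.04 FPKM (SD, n = 6) to 6.61 ± 2.73 FPKM (SD, n = 6), by 1.57 on the log2 scale (SE 0.25, limma adjusted P = 0.000308).

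Junb, on chromosome 8 (84974484-84978718, minus strand), encodes a Jun protein that activates more weakly than Jun and can oppose it. Its level ranged from 3.57 to 9.0 FPKM under PZH (median 6.17) and from 9.32 to 24.7 FPKM in the controls (median 17.4). The groups were separated by 0.319 FPKM only, between PZH 6 and Control 2. Junb fell by 1.26 on the log2 scale (SE 0.24, limma adjusted P = 0.00104), from a mean of 17.0 ± 5.97 FPKM to 6.38 ± 2.03 FPKM (SD, n = 6 each).

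Jund, also on chromosome 8 (70698949-70700616, plus strand), is the Jun gene with the most constant expression in resting cells. It was the most abundant of the 10 genes in both groups, at 10.3 to 16.6 FPKM in the PZH mice (median 14.8) and 22.6 to 40.6 FPKM in the control mice (median 32.9). The control mice were in a lower set of 3 (Control 1, Control 2 and Control 3, up to 26.0 FPKM) and a higher set of 3 (from 39.8 FPKM). Jund fell by 1.10 on the log2 scale (SE 0.17, limma adjusted P = 0.000217). After division by a scale factor per mouse the difference was -0.92, still with an adjusted P of 0.000299 in limma but below 2-fold, and the call was lost.

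Fos, on chromosome 12 (85473890-85477273, plus strand), encodes the Fos protein, which binds DNA only as a partner of a Jun protein. Of the 10 genes it was the lowest in both groups, with 0.439 to 0.941 FPKM in the PZH mice (median 0.668) and 2.59 to 12.3 FPKM in the control mice (median 4.21). Control 4 and Control 5 were the highest mice, and the control values spread 4.73-fold from lowest to highest. The mean was 5.73 ± 3.72 FPKM in controls and 0.673 ± 0.222 FPKM in PZH mice (SD, n = 6 each), a ratio of 8.51. On the log2(FPKM + 1) scale, which understates the change of genes this low, Fos fell by 1.86 (SE 0.27, limma adjusted P = 0.000177).

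Fosl2, on chromosome 5 (32135801-32157842, plus strand), encodes Fra-2, a Fos protein that is induced later and lasts longer than Fos. The PZH mice held 1.76 to 3.12 FPKM (median 2.70) and the control mice 4.95 to 12.05 FPKM (median 7.75). Fosl2 fell by 1.25 on the log2 scale (SE 0.17, limma adjusted P = 0.00012), and PZH mice other than PZH 1 lay close together, from 2.60 FPKM up.

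Atf3, on chromosome 1 (191170296-191218039, minus strand), encodes a stress-induced ATF protein that pairs with Jun proteins and mostly represses. Its 6 control mice ranged from 13.2 to 30.9 FPKM (median 25.5) and its 6 PZH mice from 3.01 to 6.51 FPKM (median 5.43). Even the lowest control, Control 3, was 6.64 FPKM above the highest PZH mouse. The mean fell from 24.1 ± 6.76 to 5.11 ± 1.20 FPKM (SD, n = 6 each), by 2.01 on the log2 scale (SE 0.20, limma adjusted P = 2.01e-05).

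Egr1, on chromosome 18 (34859823-34864984, plus strand), encodes a zinc finger factor induced through SRF and its partners of the TCF family. PZH mice had 1.49 to 6.92 FPKM (median 1.95) and control mice 8.29 to 18.2 FPKM (median 14.7). The next PZH mouse after PZH 3 was at 2.49 FPKM, and PZH 3 was below the lowest control, Control 6. Egr1 fell by 2.1 on the log2 scale (SE 0.27, limma adjusted P = 8.85e-05), and by 2.34 without PZH 3.

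Ier2, on chromosome 8 (84661331-84662852, minus strand), encodes a small nuclear protein of the immediate early response. With 5.13 to 8.32 FPKM in the PZH mice (median 7.30) and 16.1 to 25.7 FPKM in the control mice (median 21.1), it left the widest gap between the groups, 7.78 FPKM. It also varied least within the controls, with a coefficient of variation of 18.5%. Ier2 fell by 1.42 on the log2 scale (SE 0.13, limma adjusted P = 1.56e-05), the smallest adjusted P of the 10.

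Ier3, on chromosome 17 (35821684-35822923, plus strand), encodes a stress-inducible regulator of cell survival and ERK signalling. It held 0.618 to 1.498 FPKM in PZH mice (median 1.08) and 4.05 to 18.4 FPKM in control mice (median 8.76), with Control 4 highest and Control 2 and Control 3 lowest. The ratio of the means, 9.43 ± 5.45 FPKM against 1.08 ± 0.336 FPKM (SD, n = 6 each), was 8.77, the largest of the 10 genes. On the log2 scale Ier3 fell by 2.18 (SE 0.29, limma adjusted P = 0.000101).

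Myc, on chromosome 15 (61985391-61990374, plus strand), encodes a factor that pairs with Max and drives genes of ribosome production and growth. It did not pass. The PZH mice held 1.10 to 8.91 FPKM (median 2.39) and the control mice 3.89 to 9.45 FPKM (median 7.70). Of the PZH mice, 4 were at or below 2.57 FPKM, under every control, and PZH 2 and PZH 3 lay among the controls. The log2 difference was -0.89 (SE 0.35), with P = 0.026 and an adjusted P of 0.0564 in limma, and exact permutation of the group labels (two-sided) gave p = 0.0541. Myc reached the call without PZH 2 (-1.08), without PZH 3 (-1.14) and without Control 3 (-1.02). All 10 genes, Myc included, had an adjusted P below 0.05 in each of those 3 fits, without the 3 mice nearest the other group, and in the 10948 genes with a mean of at least 1 FPKM, where Myc was below 2-fold.

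**Figure D2:**
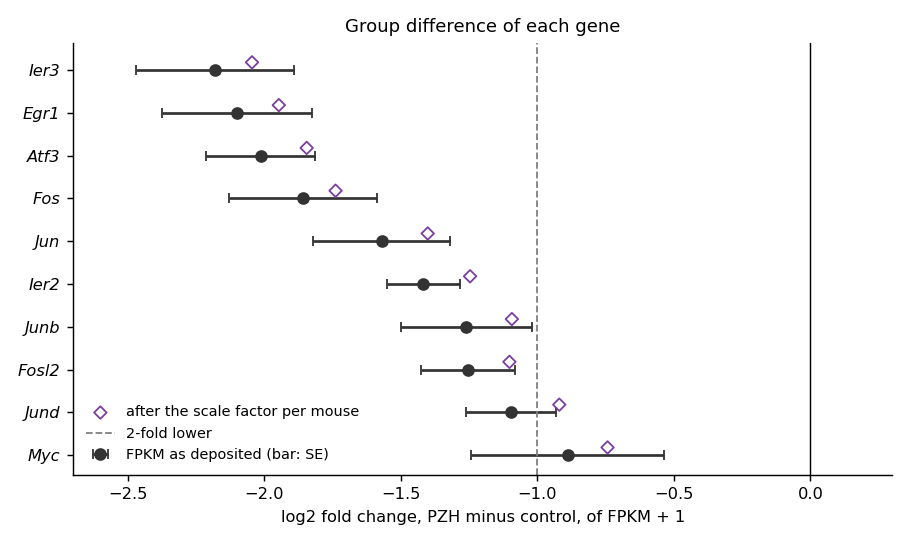
Log2 fold change (x axis, PZH minus control, on FPKM + 1) of each gene with its standard error (circles and bars), and the same after a scale factor per mouse (diamonds), with the dashed line at 2-fold lower. With the deposited values 9 genes lay past the 2-fold line, and after scaling 8 did, since Jund moved from -1.10 to -0.92.

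For each of the other 9 genes, exact permutation of the group labels (two-sided) gave p = 0.0022, the smallest value that 6 against 6 mice allow. The deposited values are not centred alike in both groups. The median log2 fold change of all 14188 genes was -0.11, and it was -0.0049 after each mouse was divided by its median-ratio scale factor, which ranged from 0.856 to 1.12. After that scaling 8 of the 10 genes were called lower and 9 had an adjusted P below 0.05, and their median log2 fold change was -1.32 in place of -1.49. Over all genes it turned the split of the calls, from 355 lower and 215 higher to 214 lower and 339 higher. At adjusted P below 0.05, 4560 genes were lower and 1798 higher with the deposited values, and 2795 and 2735 after scaling.

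The order of the levels differed in part between the groups. In the controls it ran, from the highest mean FPKM, Jund, Atf3, Jun, Ier2, Junb, Egr1, Ier3, Fosl2, Myc and Fos, and no neighbours in this order differed by more than the larger of their 2 SDs. In the PZH mice it ran Jund, Ier2, Jun, Junb, Atf3, Myc, Egr1, Fosl2, Ier3 and Fos. Jund exceeded Ier2, Fosl2 exceeded Ier3 and Ier3 exceeded Fos by more than the larger SD, and the other neighbours did not differ beyond it. Atf3 had rank 2 in the controls and rank 5 in the PZH mice.

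The genes also varied together among mice of the same group. Control 4 was the highest control for 7 of the 10 genes and, with Control 5, was among the upper 3 controls for all 10. Control 2 was the lowest for 6 and Control 3 for 3. PZH 1 was the lowest PZH mouse for 7 genes, while the highest was PZH 2 for 4 and PZH 3 for 3. The mean log2(FPKM + 1) of the 10 genes ranged from 1.90 (PZH 1) to 2.60 (PZH 3) in the PZH mice and from 3.33 (Control 2) to 4.40 (Control 4) in the control mice. Over the 6 controls all 45 pairs of genes correlated positively, with a median Pearson r of 0.750, and over the 6 PZH mice 41 of 45 did, with a median of 0.460. These correlations are descriptions, since all genes of a mouse share its library and scaling.

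**Figure D3:**
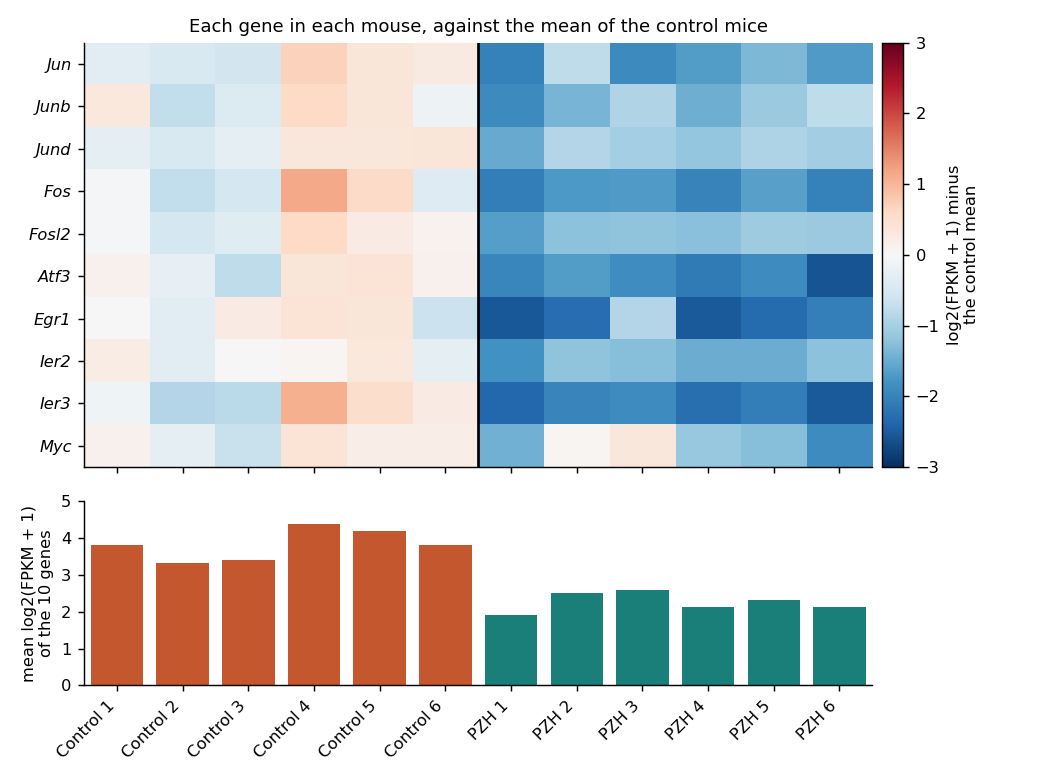
Upper panel, log2(FPKM + 1) of each gene (rows) in each mouse (columns) minus the mean of the 6 control mice, in colour (red higher, blue lower); lower panel, the mean log2(FPKM + 1) of the 10 genes in each mouse. The bars lie between 3.33 and 4.40 in control mice and between 1.90 and 2.60 in PZH mice, and Myc, in PZH 2 and PZH 3, is the only gene at a control level in a PZH mouse.

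Over the 12 mice together, after centring in each group, Ier3 (r = 0.895), Fosl2 (0.874) and Fos (0.873) followed the mean of the other 9 genes most closely. Egr1 (0.420) followed it least. The order was not the same in the PZH mice alone. There the median r with the other 9 genes was highest for Jund (0.691) and lowest for Atf3 (0.149), while in the controls it was highest for Ier3 (0.883) and lowest for Egr1 (0.354). Outside the 10 genes, the genes with mean FPKM of at least 1 whose group-centred levels were most like the mean of the 10 were Akap2 (r = 0.961), a kinase anchoring protein, Rhbdf2 (0.961), which governs the release of EGF receptor ligands and TNF, Afdn (0.959), a cell junction protein, Nfkb2 (0.951), an NF-kB subunit, and Zswim4 (0.947). These are the top 5 of 10938 genes ranked, over 12 mice, and are given as a description with no test. Each of the 5 had a lower mean in the PZH group, from 11.9 against 17.9 FPKM for Afdn to 2.77 against 9.48 FPKM for Nfkb2.

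At the level of transcripts, 10 of the 16 were called lower in limma, whereas 1.99% of all 29883 protein-coding transcripts were. Jun, Junb, Jund, Fos, Fosl2, Egr1, Ier2 and Ier3 had 1 listed transcript each. Atf3 had 2, both called lower. Atf3-201 fell from 20.8 ± 5.32 to 4.84 ± 0.993 FPKM (SD, n = 6 each) and Atf3-203 from 3.27 ± 1.90 to 0.272 ± 0.417 FPKM, and Atf3-203 was listed at 0 in 3 PZH mice. Atf3-201 made up 95.5% ± 6.94 of Atf3 in the PZH mice and 87.2% ± 5.24 in the control mice (two-sided exact permutation test, p = 0.0433, adjusted over 2 genes p = 0.0433).

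None of the 6 listed Myc transcripts passed the adjusted threshold in limma, and 4 had an unadjusted P below 0.05, all lower. The share of the most abundant one, Myc-206, was 35.8% ± 7.09 in the PZH mice and 45.8% ± 6.18 in the control mice (SD, n = 6 each, two-sided exact permutation test, p = 0.0303, adjusted p = 0.0433). Myc-204, with 0.937 ± 0.762 against 1.09 ± 0.301 FPKM, and Myc-203, with 0.486 ± 0.666 against 0.543 ± 0.369 FPKM, differed little in mean. Myc-201 and Myc-205 have the same ends in the annotation and the same length, and how reads were split among the overlapping Myc transcripts is uncertain.

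The other genes of these pathways were taken as lists. These lists too were chosen with earlier results of these data known, so their counts beside the shares of all genes are descriptions. Over all genes, 32.1% were lower and 12.7% higher by adjusted P, and 2.5% were called lower. Of 13 measured partners of AP-1 and Maf proteins, 7 fell and 2 rose at adjusted P below 0.05 in limma, and 2 were called lower. Their median log2 fold change was -0.26 beside -0.11 over all genes. By adjusted P after scaling, 5 of the 13 were lower and 3 higher, beside 2795 and 2735 of all 14188 genes. Maff, a small Maf protein induced by stress, fell from 7.23 ± 3.13 to 1.55 ± 0.519 FPKM, by 1.62 on the log2 scale. Fosl1, which encodes Fra-1, fell from 2.65 ± 0.795 to 0.403 ± 0.238 FPKM, by 1.37. Mafk fell by 0.95 and Fosb, present at 0.302 FPKM or less on average, by 0.31. Maf (0.31) was among the 2 that rose, while Atf7 (-0.09), Batf2 (-0.04), Batf3 (-0.32) and Mafg (0.16) did not pass.

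Of 40 other immediate early genes, 29 fell and none rose at adjusted P below 0.05, beside 32.1% and 12.7% of all genes. The other 11 did not pass, and 10 of the 40 were called lower, beside 2.5% of all genes. The median log2 fold change of the list was -0.69. At an unadjusted P below 0.05, 30 were lower and 0 higher. Dusp5 and Dusp4, nuclear phosphatases that switch off ERK and are transcribed in answer to it, moved most. Dusp5 fell from 11.3 ± 3.62 to 1.13 ± 0.431 FPKM (log2 fold change -2.49, limma adjusted P = 8.29e-06) and Dusp4 from 11.5 ± 4.81 to 1.34 ± 0.384 FPKM (-2.34, limma adjusted P = 1.69e-05). Both were highest in Control 4 among controls and highest in PZH 2 among PZH mice. Btg2, an antiproliferative protein, fell by 1.62 and Cyr61 (Ccn1), a matrix protein driven by SRF and YAP, by 1.53. Not every gene of this kind was lower: Zfp36, which encodes tristetraprolin, the protein that binds AU-rich elements, was at 17.6 FPKM in PZH and 18.2 FPKM in control mice (-0.03), and Pim1 (-0.06), Pim3 (0.13), Plk3 (0.15) and Gadd45g (-0.23) also did not pass.

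The 33 upstream genes were the MAP kinase cascade with SRF, its TCF and MRTF partners and CREB. At adjusted P below 0.05, 16 fell, 1 rose and 16 did not pass, beside 32.1% of all genes lower and 12.7% higher. Their median log2 fold change was -0.32, and -0.15 after scaling. By adjusted P after scaling 12 were lower and 3 higher, beside 2795 and 2735 of all 14188 genes. Srf, the factor that binds the CArG box, fell from 6.08 ± 0.858 to 2.77 ± 0.526 FPKM (log2 fold change -0.91, limma adjusted P = 5.05e-05). Rps6ka3 (RSK2) fell by 0.75 and Mkl1 (Mrtfa), an actin-regulated partner of Srf, by 0.55. Map2k6, a kinase that activates p38, was the 1 that rose, from 0.785 ± 0.520 to 4.35 ± 1.01 FPKM (log2 fold change 1.61, limma adjusted P = 4.36e-05). Nras was the 1 called lower (-1.07), with overlapping groups. None was called lower after scaling (Nras -0.90) or without PZH 3, PZH 4, Control 1, Control 5 or Control 6, and 2 were without PZH 2. mRNA levels do not show the activity of these kinases.

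Of 9 genes that act on the products of the 10 genes, as corepressors of Egr1, ubiquitin ligases or mRNA decay factors, none was called 2-fold. At adjusted P below 0.05 in limma, 7 fell and none rose, beside 32.1% of all genes lower and 12.7% higher. At an unadjusted P below 0.05, 8 were lower and 1, Itch, was higher. Khsrp and Elavl1, RNA-binding proteins that destabilise and stabilise AU-rich mRNAs, fell by 0.74 and 0.62 on the log2 scale. Fbxw7, the ubiquitin ligase subunit that marks Myc and Jun, fell by 0.67 and Nab2, an Egr1 corepressor, by 0.61. The median of the list was -0.54, and -0.37 after scaling.

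Of 16 textbook AP-1 target genes, 13 fell and none rose at adjusted P below 0.05, beside 32.1% and 12.7% of all genes. The other 3 (Ccnd1, Spp1 and Vegfa) did not pass, and 10 of the 16 were called lower, beside 2.5% of all genes. The median log2 fold change of the list was -1.05. The counts were the same, 13 lower and 0 higher, at an unadjusted P below 0.05. Mt2, a metallothionein, fell from 302.1 ± 144.9 to 27.1 ± 10.2 FPKM (-3.33, limma adjusted P = 3.71e-05). Ccl2, the monocyte chemokine, fell from 8.08 ± 4.37 to 0.736 ± 0.330 FPKM (-2.30), and Timp1, the inhibitor of matrix metalloproteinases, from 10.5 ± 2.50 to 1.61 ± 0.541 FPKM (-2.13). Vegfa was at 17.3 and 16.5 FPKM (0.07).

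**Figure D4:**
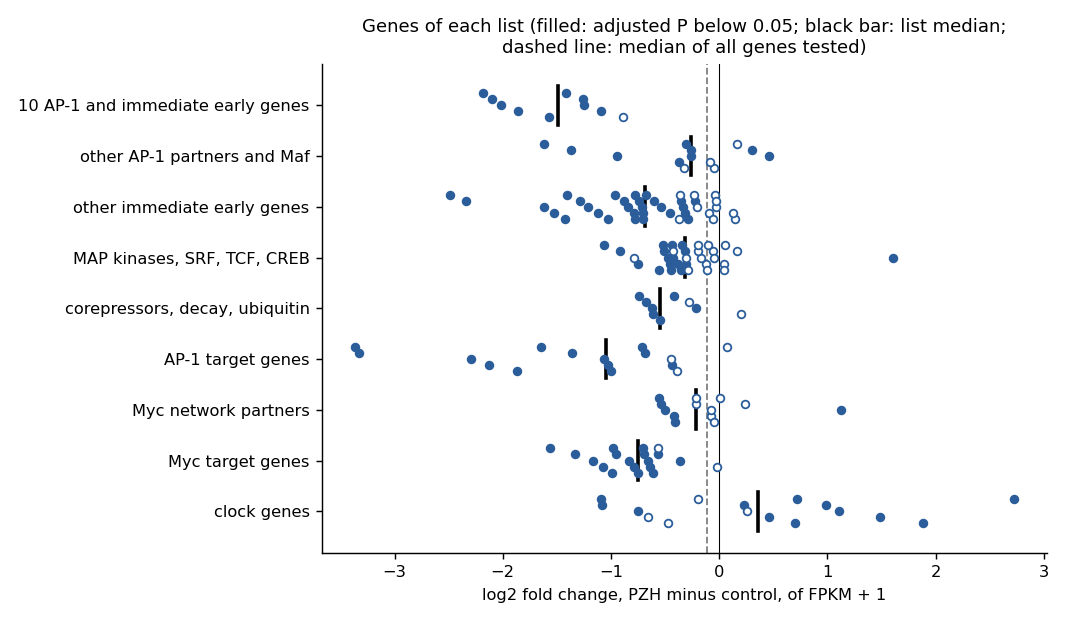
Log2 fold change (x axis, PZH minus control, on FPKM + 1) of the genes of each list, each point 1 gene, filled where adjusted P is below 0.05 in limma, with the list median as a black bar and the median of all genes (-0.11) dashed. The medians of the 10 genes (-1.49) and of the AP-1 targets (-1.05) are the lowest, and that of the clock genes (0.36) is above 0.

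Around Myc, 5 of 13 partners fell and 1 rose at adjusted P below 0.05 in limma, as at an unadjusted P below 0.05, and none was called lower, whereas 32.1% of all genes were lower and 12.7% higher by adjusted P. After scaling 3 were lower and 1 higher, beside 2795 and 2735 of all 14188 genes. Max fell from 12.2 ± 1.59 to 7.93 ± 0.964 FPKM (-0.56) and Mga, which also pairs with Max, fell by 0.42. The 1 that rose was Mlxipl (1.12), the carbohydrate response factor ChREBP. Although Myc itself did not pass, 17 of 19 textbook Myc target genes fell and 4 were called lower, beside 32.1% and 2.5% of all genes. The median of this list was -0.75, and -0.59 after scaling. Cad, the enzyme that starts pyrimidine synthesis, fell from 15.7 ± 1.76 to 4.75 ± 1.37 FPKM (log2 fold change -1.56, limma adjusted P = 1.13e-05), Srm, of spermidine synthesis, by 1.17, Ddx21 by 1.08 and Gnl3 by 0.99. Cad, Srm and Ddx21 were highest in PZH 2 among the PZH mice, and still below every control mouse. They were named because their groups did not overlap, so they cannot show whether targets followed Myc into the control range. Of the targets with overlapping groups, Ncl in PZH 2 was at 17.5 FPKM (lowest control 17.3 FPKM) and Nop56 at 11.97 FPKM (lowest control 9.28 FPKM). Others did not reach that range in PZH 2, such as Odc1 at 29.1 FPKM (lowest control 34.7 FPKM). PZH 1, with Myc at 1.87 FPKM, reached it for Nop56 (13.4 FPKM), Odc1 (36.0 FPKM) and Npm1 (51.4 FPKM, lowest control 50.3 FPKM), but not for Ncl (14.9 FPKM). PZH 3, with the highest Myc of the PZH mice (8.91 FPKM), was below it for Ncl (13.0 FPKM), Nop56 (3.24 FPKM) and Odc1 (17.9 FPKM). Whether the targets followed Myc was not tested. The count of 4 called became 7 without PZH 1 or without PZH 2, and 2 after scaling.

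Transcription next to the genes was compared too. The 21 protein-coding genes within 50 kb of a member lie by Junb, Jund, Egr1, Ier2 or Ier3, and the other members had no such listed neighbour. Of the 21, 9 fell and 4 rose at adjusted P below 0.05, beside 32.1% and 12.7% of all genes. Their median log2 fold change was -0.14 beside -0.11. Among them 2 were called, both lower, beside 2.5% of all genes called lower and 1.52% higher. Both lie by Ier3 on chromosome 17. Flot1, a membrane raft protein 0.3 kb downstream of Ier3 on the same strand, fell from 20.2 ± 4.88 to 8.74 ± 1.85 FPKM (-1.11, limma adjusted P = 0.000275), and after scaling it was at -0.94, below 2-fold. Tubb5, a tubulin gene 15.4 kb away on the other strand, fell from 83.3 ± 5.68 to 35.4 ± 7.44 FPKM (-1.23, limma adjusted P = 1.39e-05).

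Of 11 lncRNA transcripts within 100 kb, none was called in limma, whereas 1.61% of the 1432 listed lncRNA transcripts were, and none fell at adjusted P below 0.05, which 8.38% of all did. At an unadjusted P below 0.05, 3 were lower and 1 higher. One transcript of D730003I15Rik, 6.4 kb from Atf3 on the other strand, was higher, at 0.960 ± 0.355 against 0.222 ± 0.393 FPKM (log2 fold change 0.71, limma adjusted P = 0.0159), with overlapping groups. The other listed transcript of this gene had the opposite sign, at 0.459 ± 0.230 against 0.819 ± 0.271 FPKM (-0.32, limma adjusted P = 0.0788), and did not pass. The 5 transcripts of Pvt1, the lncRNA gene beside Myc, had log2 fold changes of -0.26 to -0.01 and did not pass.

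Cell type markers were compared because whole liver was sequenced. The summed FPKM of 6 hepatocyte markers was higher in the PZH mice, 49082 to 63198 against 30740 to 44664 in the controls (two-sided exact permutation test, p = 0.0022). Most of this sum was Alb, with a mean of 38437 FPKM in the PZH mice and 24059 FPKM in the controls. Alb and Ttr were the 2 of 6 that rose by adjusted P, and Trf had a lower mean (4177 against 4905 FPKM). After scaling 4 of the 6 hepatocyte markers were higher by adjusted P. The 4 cholangiocyte markers summed to 5.40 to 7.60 FPKM in the PZH mice and 11.9 to 18.8 FPKM in the controls (exact permutation test, p = 0.0022), through Sox9 (-1.64), while Krt7, Krt19 and Epcam did not pass. Sums of macrophage markers, 346 to 532 against 362 to 468 FPKM, overlapped (exact permutation test, p = 0.390), with 2 of 7 that fell, Marco (-2.21) and Cd68, and 2 that rose, Csf1r and Clec4f. After scaling 1 was lower and 3 were higher by adjusted P, and Cd68 (-0.14) no longer passed. The sums for neutrophils, T cells, B cells, stellate cells, endothelial cells and erythroid cells overlapped too, with exact permutation p from 0.149 to 0.693. Single markers among these passed in limma at adjusted P below 0.05. Of the 8 stellate cell and myofibroblast markers Acta2 (-0.92) and Des (-0.47) fell and Col3a1 (0.62) rose. The neutrophil marker Csf3r (-0.64) and the endothelial marker Pecam1 (-0.29) fell, the erythroid marker Alas2 (0.30) rose, and no T or B cell marker passed. Hepatocyte markers were abundant in every mouse, as the label liver implies. What part the changes in these markers had in the lower levels of the 10 genes was not tested.

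Clock genes, listed because several immediate early genes also follow the time of day, moved with the groups. Of 16, 9 rose and 3 fell at adjusted P below 0.05, beside 12.7% of all genes higher and 32.1% lower. Called higher were 4 and called lower 2, beside 1.52% and 2.5% of all genes. Dbp rose from 2.11 ± 1.29 to 18.5 ± 4.97 FPKM (log2 fold change 2.73, limma adjusted P = 2.24e-05), Per3 by 1.88, Tef by 1.49 and Nr1d1 by 1.11, while Cry1 (-1.08) and Nfil3 (-1.09), the pair called lower, fell. Both were below 2-fold after scaling (Cry1 -0.95, Nfil3 -0.92), which left 0 called lower, and 1 was called lower without Control 4. Per1, itself an immediate early gene, was at -0.65 with an adjusted P of 0.0648 in limma. The time of day at which each mouse was killed is not given in the sources used here, and its part in the levels of the 10 genes was not tested.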

How the data were processed

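The 10 genes and the other lists were chosen with earlier results of these data known. Liver RNA of 12 mice was sequenced after rRNA removal as strand-specific libraries. The authors trimmed reads with Trimmomatic, used HISAT2 2.1.0 on GRCm38 for mapping, and estimated transcripts by StringTie 1.3.5 with Ensembl release 95. The authors deposited FPKM per transcript and mouse, in 1 table of 29883 protein-coding and 1 of 1432 lncRNA transcripts. These values are already divided by length and library size. In no mouse were more than 17.2% of low values within 0.02 of a whole multiple of the best step, so counts and depth were not recovered and the precision is the spread between mice.

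FPKM were summed per gene by GENCODE M21, which held 29876 and 1431 of the transcripts, and compared with limma 3.58.1 (R 4.3.3) on log2(FPKM + 1) with no filter, 6 PZH against 6 control mice, with Benjamini-Hochberg adjustment over all genes or transcripts of a table. Single values were compared by two-sided exact permutation of the group labels. The labels do not say more of the mice than their group and number. The procedure was tested on simulated data.

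The alternatives tried were 0.1 as pseudocount, a filter at mean FPKM 1, median-ratio scale factors, equal FPKM sums, a mean-variance trend, no moderation, the mouse number as a block, the leading transcript alone, adjusted P for the call, and each mouse left out. Leaving out the 3 mice nearest the other group was added after seeing the data. Named were the 10 genes with every listed transcript, up to 4 genes of each other list with the largest log2 fold change among those with adjusted P below 0.05 and no overlap, called neighbours and the 5 most alike genes. Genes outside this rule were chosen after seeing their values, and 2 genes are not reported here by name. Promoter windows are from RefSeq (GRCm38.p6). Other steps used Python 3.11.15 (scipy 1.17.1).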

Additional observations from a re-analysis of the deposited data

Results flagged for a closer look

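Egr1 in PZH 3 was at 6.923 FPKM, while the other 5 PZH mice held 1.49 to 2.49 FPKM. The gap to the nearest mouse was 0.815 of the range of the group, above Dixon's 95% limit for 6 values. Of the 20 groups of values looked at, 10 genes in 2 groups, this was the only one past the limit, and chance passes about 1 in 20. Myc was highest in PZH 3 too, at 8.91 FPKM, as was Ier3, at 1.498 FPKM.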

How the results depend on the processing

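Over the alternatives 8 to 10 of the 10 genes were called lower, and 9 to 10 with 1 mouse left out. No log2 fold change of the 10 genes changed sign in 202 values. Jund lost its call under the median-ratio scale factors (-0.92), and Myc gained one with a pseudocount of 0.1 (-1.13), without PZH 2, PZH 3 or Control 3 (-1.14 to -1.02) and without the 3 mice nearest the other group, Control 2, Control 3 and PZH 2 (-1.32). The count of all genes called, 570, was 1317 with a pseudocount of 0.1, which enlarges differences of low genes, 878 without those 3 mice and 511 to 675 with 1 mouse left out. Of 570 called genes 62.3% were lower (355 lower and 215 higher), but 38.7% under the median-ratio scale factors (214 lower and 339 higher). With a pseudocount of 0.1, 4 protein-coding neighbours and 1 lncRNA transcript near the genes were called in place of 2 and 0, and 1 neighbour under the median-ratio scale factors. The cause of these other shifts was not tested.

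With the mouse number as a replicate block 9 of the 10 genes were called lower, and 360 genes in all were lower and 216 higher, so no call of a member changed. Mice of the same number did not deviate together (correlations from -0.0784 to 0.0929), and none correlated best with its own number, so the samples share only a number. FPKM without counts give no counting error, and of the 10 genes Fos (from -1.86 to -2.75) and Ier3 (from -2.18 to -2.87) moved most with a pseudocount of 0.1.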
